A study of Homo sapiens with 8 samples.

Results

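The genes described here are 41 genes of autophagy, listed by name and taken as the rows of a table of raw read counts whose symbol equals a listed gene. All 41 had a row among the 23346 symbols of the table, and all 41 passed the filter on low counts, which left 14977 genes for testing. RNA came from 22Rv1, an established human prostate cancer cell line, and all 8 libraries were of this line grown in RPMI1640 medium with fetal bovine serum. Transfection was done in suspension, with a mimic of the microRNA miR-194 in 4 libraries and with a negative control in the other 4, each at 20 nM, and RNA was taken 36 h later. A mimic is a synthetic double-stranded RNA that loads cells with the mature microRNA. The negative control's sequence is unstated, no untransfected library was analysed here, and the replicates are not described as separate cultures. A gene higher with the mimic can therefore not be told apart from one lowered by the control, and every p-value covers only the spread among these 8 libraries, which may be technical.

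Autophagy encloses cytoplasm in a growing double membrane, the phagophore, which closes into an autophagosome and fuses with the lysosome. The ULK kinase complex starts the process, and the class III phosphatidylinositol 3-kinase (PI3-kinase) complex marks the membrane with phosphatidylinositol 3-phosphate. Lipid is then delivered through ATG9 and ATG2 proteins, and ubiquitin-like conjugation attaches the small ATG8 proteins to the membrane, where cargo receptors bind them. In nutrient-fed cells the kinase complex mTORC1 holds ULK1 inactive. Most of these proteins are controlled by phosphorylation, lipidation and turnover, and RNA levels do not measure autophagic flux.

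Library totals ran from 32485036 to 47248241 counts. Of the total variance of the libraries, the first principal component carried 51.1% and separated mimic from control, and the second carried 20.6% and separated replicates 1 and 2 from replicates 3 and 4 in both groups. The prostate epithelial markers KLK3, FOXA1, HOXB13, KRT8, KRT18 and EPCAM were present in every library, EPCAM at 93.9 to 116 CPM (a read count scaled by its library's normalised size). Of 6 markers of other cell types, PECAM1 and CDH5 had no count in any library, CD3E had 1 count in 1 control library, and PTPRC and COL1A2 reached at most 0.17 CPM. COL1A1, a collagen gene, was the exception, at 13 to 15.1 CPM with the mimic and 11.3 to 12 CPM in the control. The summed level of the 6 genes was 13.3 to 15.4 CPM with the mimic and 11.4 to 12.2 CPM in the control, nearly all of it COL1A1, and its part in the differences described was not tested. In bulk RNA, fewer cells of a kind and less RNA per cell cannot be told apart.

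More of the autophagy genes were higher with the mimic than lower. By the quasi-likelihood test of edgeR (Benjamini-Hochberg adjusted p below 0.05 over all tested genes), 19 of 41 were higher, or 46.3%, beside 18.3% of all tested genes. A further 4 were lower, or 9.76%, beside 19.9% of all tested genes. With the replicate number as a block, a further term in the fit, 21 were higher and 7 were lower, and without mimic replicate 3 only PIK3R4 was called lower. The share of all tested genes called is not given for these other fits, so their counts cannot be set beside one. The 4 mimic and the 4 control libraries did not overlap in the same 23 genes, 19 higher (46.3% of 41) and 4 lower (9.76%). Among all tested genes this held for 17.4% higher and 19.5% lower with the mimic. Lack of overlap thus repeats the calls and is not separate evidence. Since well-expressed genes are called more often, the counts were repeated for genes averaging at least 5 CPM. There, 19 of 40 autophagy genes were higher (47.5%) and 4 were lower (10.0%), beside 22.3% each way of 11108 genes. The median log2 fold change of the 41 genes was 0.11, beside 0.0017 for all tested genes, and NRBF2 alone differed by 1.5-fold or more. Among the called genes other than NRBF2 the log2 fold change had a size of 0.11 to 0.56.

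NRBF2 was listed with its rise already known, so its values are a description. The whole list was chosen with earlier results of these data known, so the shares called are a description too. Without NRBF2, 18 of 40 genes were higher and 4 were lower, and the median log2 fold change was again 0.11. In replicates 1 and 2 alone, as in replicates 3 and 4 alone, all 23 called genes differed in the direction of the full comparison, although these pairs are drawn from the same libraries. The median log2 fold change of the 41 genes was 0.11 in the first pair of replicates and 0.10 in the other.

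**Figure D1:**
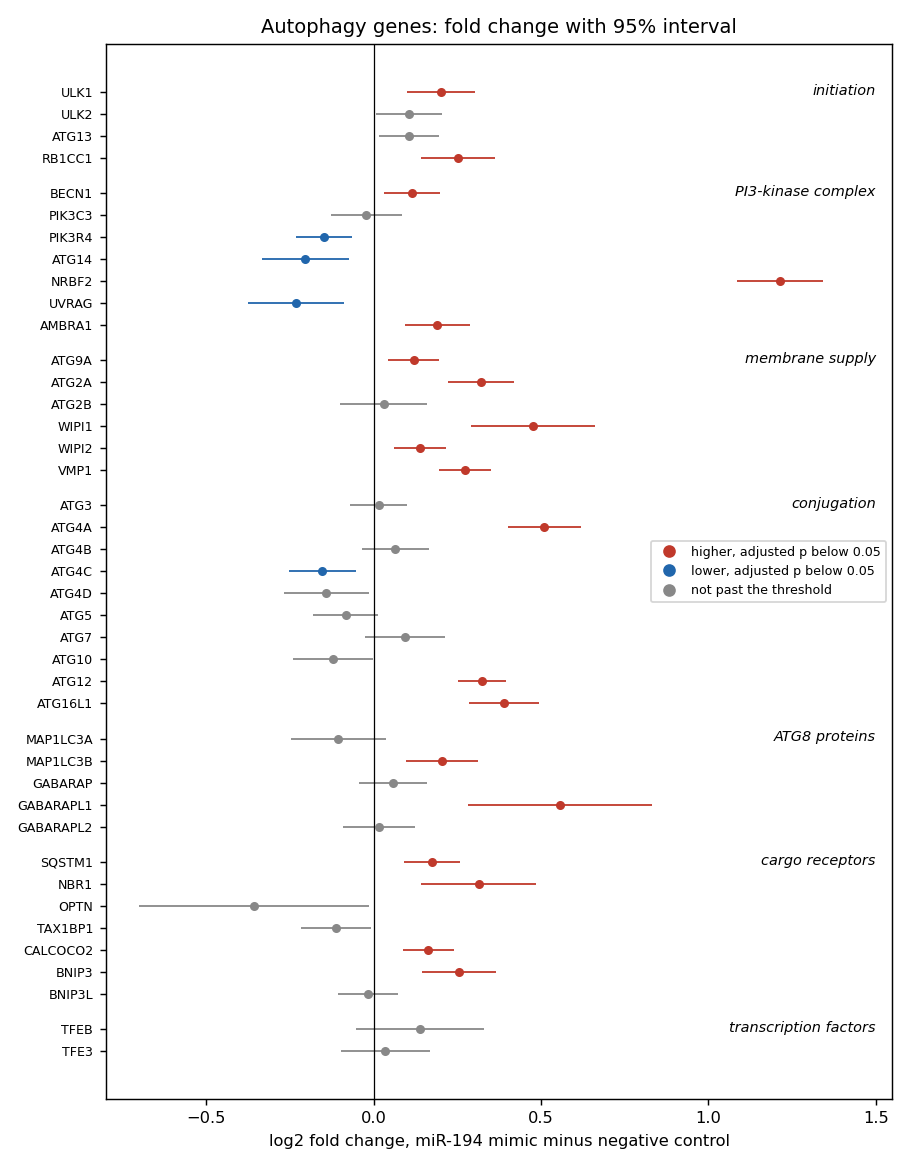
Log2 fold change (mimic over control, horizontal axis) of each of the 41 autophagy genes, grouped by role, with bars for the 95% confidence interval of the edgeR fit over 4 against 4 libraries and colours for the call. NRBF2 stands at 1.21, and all other genes lie between -0.36 and 0.56.

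The ULK complex starts autophagosome formation. Of its 4 genes, 2 rose and none was called lower. ULK1, the kinase that starts the process, rose from 80.3 ± 2.56 CPM in the control to 92.3 ± 5.64 CPM with the mimic (SD, n = 4 each; edgeR adjusted p = 0.0054), a log2 fold change of 0.20 ± 0.05 (SE). Of its 4 mimic libraries, replicate 3 was the highest at 101 CPM and the other 3 lay between 88.3 and 90.2 CPM, all above the control range of 77.2 to 82.5 CPM. RB1CC1, the scaffold also called FIP200, rose from 69.5 ± 2.85 to 82.8 ± 5.33 CPM, a log2 fold change of 0.25 (edgeR adjusted p = 0.00211). The related kinase ULK2 and the scaffold ATG13 each had a log2 fold change of 0.11 and were not called (edgeR adjusted p = 0.0842 and 0.0624). Both passed with the replicate block (edgeR adjusted p = 0.044 and 0.0216).

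The PI3-kinase complex held the largest difference among the 41 genes and 3 of the 4 that fell. NRBF2 encodes a subunit that binds ATG14 and joins the autophagy form of the complex. Its level was 21.1, 20, 21.7 and 21.2 CPM in mimic replicates 1 to 4 and 9.25, 8.78, 9.6 and 8.62 CPM in control replicates 1 to 4. Every mimic library was above every control library, with raw counts of 644 to 997 against 363 to 404. The fold was 2.32 (95% confidence interval 2.12 to 2.54), a log2 fold change of 1.21 ± 0.06 (SE), the 27th highest of the 14977 tested genes. The log2 fold change was 1.19 in replicates 1 and 2 and 1.24 in replicates 3 and 4. NRBF2 lies on the plus strand at chr10:63133247-63155031 (GRCh38), and no other gene annotated in GENCODE 29 shares its exons.

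The other genes of the complex moved little, and not in 1 direction. UVRAG takes the place of ATG14 in the endosomal form of the complex. It measured 14.5, 13.9, 13.6 and 15.3 CPM with the mimic and 15.6, 16.2, 17.6 and 17.9 CPM in the control. All mimic libraries were below all control libraries, mimic replicate 4 and control replicate 1 being the closest. The log2 fold change was -0.23 ± 0.07 (SE; edgeR adjusted p = 0.0158), and the call was lost without mimic replicate 3 (edgeR adjusted p = 0.0509).

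ATG14 directs the complex to sites of autophagosome formation. Its levels were 25.6, 25.4, 22.8 and 22.5 CPM with the mimic and 28.5, 26.7, 29.1 and 26.4 CPM in the control. The groups did not overlap, and mimic replicates 3 and 4 were the lowest. The log2 fold change was -0.20 ± 0.06 (SE; edgeR adjusted p = 0.0186), being -0.12 in replicates 1 and 2 and -0.29 in replicates 3 and 4. The call was lost when mimic replicate 3, mimic replicate 4, control replicate 1 or control replicate 3 was left out, with edgeR adjusted p from 0.0548 to 0.0583.

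PIK3R4, the regulatory subunit also called VPS15, measured 59.5, 58.2, 55.5 and 59.6 CPM with the mimic and 66.8, 64.1, 63.9 and 63.2 CPM in the control. All 4 mimic libraries were lower, and the log2 fold change was -0.15 ± 0.04 (SE; edgeR adjusted p = 0.0101). The catalytic subunit PIK3C3, or VPS34, averaged 26.1 ± 1.22 CPM with the mimic and 26.5 ± 0.641 CPM in the control (SD, n = 4 each). Its log2 fold change of -0.02 had a 95% confidence interval of -0.13 to 0.08. BECN1, the scaffold of both forms, rose from 75.1 ± 2.81 to 81.2 ± 1.88 CPM, a log2 fold change of 0.11 (edgeR adjusted p = 0.0343). That call was lost without mimic replicate 3 or 4, or control replicate 1, 2 or 3 (edgeR adjusted p 0.0533 to 0.11). It was also lost with scaling by library totals alone (edgeR adjusted p = 0.0755) and in replicates 3 and 4 alone (0.125). AMBRA1, which binds beclin 1 and promotes its activity, rose from 57.1 ± 2.85 to 65.1 ± 1.88 CPM, a log2 fold change of 0.19 (edgeR adjusted p = 0.00546). Of the 7 genes of the complex, 3 were therefore higher, 3 lower and 1 not called.

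**Figure D2:**
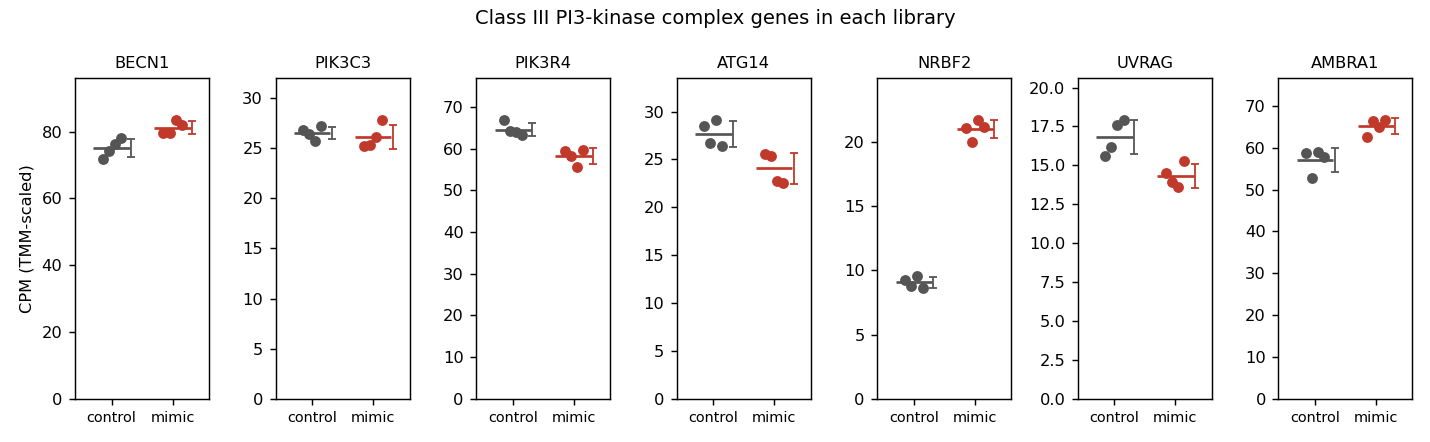
CPM (vertical axis, from 0) of the 7 genes of the PI3-kinase complex in each library, replicates 1 to 4 from left to right in each group, with the mean as a line and the SD as a bar. NRBF2 stands at 20 to 21.7 CPM with the mimic and 8.62 to 9.6 CPM in the control, while the other 6 genes differ by at most 0.23 on the log2 scale.

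Of the 6 genes of membrane supply, 5 rose and none was called lower, and their median log2 fold change was 0.21. WIPI1, which binds phosphatidylinositol 3-phosphate on the phagophore, measured 12.4, 10.3, 12 and 10.3 CPM with the mimic and 8.11, 7.56, 7.95 and 8.77 CPM in the control. Each mimic library was higher, and the log2 fold change was 0.48 ± 0.08 (SE; edgeR adjusted p = 0.000979). Its relative WIPI2, which recruits ATG16L1, rose from 64.8 ± 1.04 to 71.3 ± 1.94 CPM, a log2 fold change of 0.14 (edgeR adjusted p = 0.00896).

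ATG2A, a lipid transfer protein, rose from 28.8 ± 0.915 to 36 ± 1.31 CPM, a log2 fold change of 0.32 (edgeR adjusted p = 0.000201). Its paralog ATG2B had a log2 fold change of 0.03 (95% confidence interval -0.10 to 0.16) and was not called. VMP1, a lipid scramblase of the endoplasmic reticulum, rose from 68.2 ± 1.46 to 82.3 ± 2.21 CPM, a log2 fold change of 0.27 (edgeR adjusted p = 0.000105). ATG9A, the scramblase of the vesicles that seed the phagophore, rose from 99.6 ± 2.02 to 108 ± 3.42 CPM, a log2 fold change of 0.12 (edgeR adjusted p = 0.0189). Its call was lost without control replicate 4 (edgeR adjusted p = 0.056), in replicates 1 and 2 alone (0.0848) and in replicates 3 and 4 alone (0.0713).

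In the conjugation machinery the genes of the ATG12 arm did not all move alike. This arm joins ATG12 to ATG5, and the pair binds ATG16L1. ATG16L1 measured 51.5, 51.7, 52.7 and 49.3 CPM with the mimic and 40.9, 41.1, 36.6 and 38 CPM in the control. ATG12 measured 120, 116, 115 and 119 CPM with the mimic and 93.7, 95.3, 91.5 and 95.1 CPM in the control. For both genes every mimic library lay above every control library. The log2 fold change of ATG16L1 was 0.39 ± 0.05 (SE; edgeR adjusted p = 7.08e-05), and that of ATG12 was 0.32 ± 0.03 (SE; edgeR adjusted p = 1.36e-05). ATG5 averaged 53.9 CPM with the mimic and 57.1 CPM in the control, a log2 fold change of -0.08 that was not called (95% confidence interval -0.18 to 0.01). ATG10, the E2-like enzyme of this arm, had a log2 fold change of -0.12 and was not called (edgeR adjusted p = 0.104). It passed with the replicate block (edgeR adjusted p = 0.0338) and without control replicate 2 (0.0364). ATG7, the E1-like enzyme of both arms, and ATG3, the E2-like enzyme for ATG8 proteins, had log2 fold changes of 0.09 and 0.02, and neither was called.

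The 4 ATG4 proteases, which process ATG8 proteins and release them from lipid, went different ways. ATG4A measured 38.6, 33.8, 38.1 and 37.4 CPM with the mimic and 26.5, 25.4, 26.1 and 25.9 CPM in the control. All mimic libraries were higher, and its log2 fold change of 0.51 ± 0.05 (SE) passed the test (edgeR adjusted p = 1.15e-05). ATG4C measured 25.5, 24.5, 24.9 and 26.5 CPM with the mimic and 27.7, 29, 28.6 and 27.5 CPM in the control. All mimic libraries were lower, and the log2 fold change was -0.15 ± 0.05 (SE; edgeR adjusted p = 0.0203). This call was lost without mimic replicate 2 or 3, or control replicate 2 or 3 (edgeR adjusted p 0.0526 to 0.057). ATG4B had a log2 fold change of 0.06 and ATG4D of -0.14, and neither was called (edgeR adjusted p = 0.291 and 0.0751). With the replicate block ATG4D passed, at an edgeR adjusted p of 0.00403. Of the 10 conjugation genes, 3 were higher, 1 was lower and 6 were not called.

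ATG8 proteins are the ubiquitin-like proteins joined to the membrane lipid. Of the 5 genes, 2 rose and none was called lower. Per kilobase of exonic length in GENCODE 29, GABARAP was the most abundant at 85.4 with the mimic and 82 in the control (mean CPM per kilobase), followed by GABARAPL2 at 30.4 and 30. MAP1LC3B at 14 and 12.2 and MAP1LC3A at 13.4 and 14.5 exchanged places between the groups, and GABARAPL1 was the lowest at 3.66 and 2.5. With the mimic the libraries of MAP1LC3B (13.1 to 15.1) and MAP1LC3A (12.1 to 14.4) overlapped on this scale, and in the control MAP1LC3A (13.4 to 15.3) lay above MAP1LC3B (11.7 to 12.7). No other neighbours in the order overlapped in either group. This order rests on an annotation that need not be the one used for counting. Of the exonic length of GABARAP, 55.7% is shared with AC120057.2, on the same strand, and AC120057.3, on the opposite strand, together.

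GABARAPL1 measured 14.4, 12.4, 17.9 and 15.1 CPM with the mimic and 9.52, 8.41, 11.5 and 11.4 CPM in the control. All mimic libraries were above all control libraries, and in both groups replicate 2 was the lowest and replicate 3 the highest. The log2 fold change was 0.56 ± 0.12 (SE), a fold of 1.47 (edgeR adjusted p = 0.00471).

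MAP1LC3B, the LC3 protein most used as a marker of autophagosomes, measured 80.4, 75.1, 73.3 and 69.4 CPM with the mimic and 66.4, 62.9, 62.2 and 67.4 CPM in the control. The groups did not overlap, and the log2 fold change was 0.20 ± 0.05 (SE; edgeR adjusted p = 0.00686). MAP1LC3A measured 23.6, 21.3, 25.5 and 24.3 CPM with the mimic and 23.7, 24.8, 26.4 and 26.9 CPM in the control. These groups overlapped, and its log2 fold change of -0.11 had a 95% confidence interval of -0.25 to 0.04.

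GABARAP measured 189.5, 177.6, 205.1 and 201.4 CPM with the mimic and 181.6, 183.4, 184.0 and 194.4 CPM in the control. GABARAPL2 measured 98.6, 85.4, 93.2 and 91.4 CPM with the mimic and 90.9, 92.8, 85.8 and 95 CPM in the control. Both genes overlapped between groups and were not called, with log2 fold changes of 0.06 (95% confidence interval -0.04 to 0.16) and 0.02 (-0.09 to 0.12). Of 3 near copies looked up beside them, MAP1LC3B2 had 5 to 14 counts a library, GABARAPL3 had at most 2 and MAP1LC3C had none in any library. None of the 3 passed the filter on low counts. Reads shared with such copies can be counted for either gene, and how shared reads were treated is unstated.

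**Figure D3:**
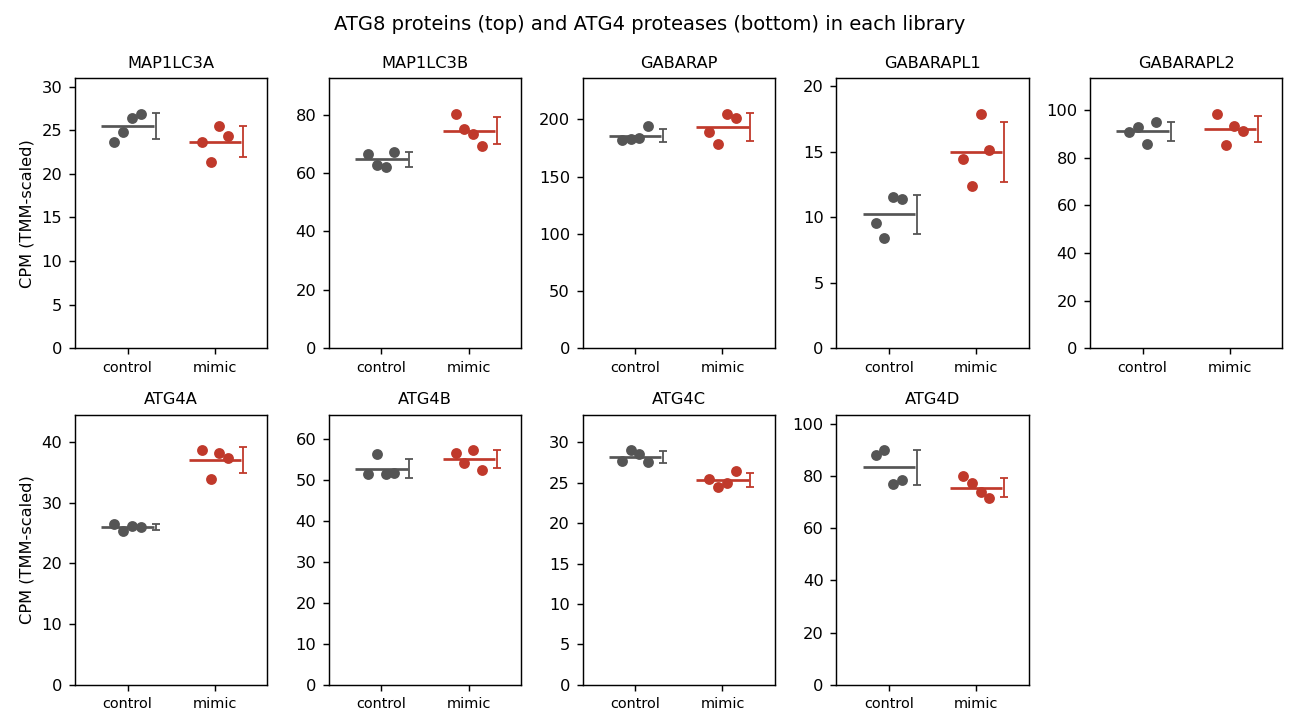
CPM (vertical axis, from 0) of the 5 ATG8 genes and the 4 ATG4 genes in each library, replicates 1 to 4 from left to right in each group, with the mean as a line and the SD as a bar. GABARAPL1, MAP1LC3B and ATG4A lie higher in all 4 mimic libraries, ATG4C lies lower in all 4, and the groups of the other ATG8 genes overlap.

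Of the 7 cargo receptor genes, 4 rose and none was called lower. SQSTM1, or p62, which carries ubiquitinated cargo and is itself degraded by autophagy, rose from 159 ± 5.5 to 180 ± 6.48 CPM, a log2 fold change of 0.17 (edgeR adjusted p = 0.0036). NBR1, a related ubiquitin receptor, rose from 166 ± 17.5 to 207 ± 16.2 CPM, a log2 fold change of 0.31 (edgeR adjusted p = 0.00885). CALCOCO2, or NDP52, which binds bacteria and damaged mitochondria, rose from 81.8 ± 2.06 to 91.5 ± 2.15 CPM, a log2 fold change of 0.16 (edgeR adjusted p = 0.00326). The mitochondrial receptor BNIP3 rose from 44 ± 2.3 to 52.5 ± 2.51 CPM, a log2 fold change of 0.25 (edgeR adjusted p = 0.00208). Its relative BNIP3L, or NIX, had a log2 fold change of -0.02 (95% confidence interval -0.11 to 0.07). TAX1BP1, a ubiquitin-binding receptor, averaged 222 CPM with the mimic and 240 CPM in the control, a log2 fold change of -0.11 that was not called (edgeR adjusted p = 0.0862). It was called lower with the replicate block (edgeR adjusted p = 0.00766), without control replicate 2 (0.0356) and in replicates 3 and 4 alone (0.0194). OPTN, another ubiquitin-binding receptor, was the only gene of the 41 below 5 CPM, at 1.58 and 2 CPM, and its interval of -0.70 to -0.01 on the log2 scale was wide (edgeR adjusted p = 0.0959).

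Neither transcription factor was called. TFEB and TFE3 drive genes of the lysosome and of autophagy, and their activity is set largely by phosphorylation and entry into the nucleus. TFEB averaged 13.4 CPM with the mimic and 12.1 CPM in the control, a log2 fold change of 0.14 (95% confidence interval -0.05 to 0.33). TFE3 averaged 22.7 and 22.1 CPM, a log2 fold change of 0.04 (95% confidence interval -0.10 to 0.17). Both factors bind DNA words around CACGTG, and the 8-letter word TCACGTGA, which holds CACGTG within it, was searched in promoters on both strands. Of the 41 genes, 36 matched a RefSeq promoter (GRCh38.p14, 250 bases before to 50 after the start), with 46 start sites. TCACGTGA was in 2 of the 46 windows, those of NRBF2 and ATG3 (4.35%, beside 0.98% of 35116 windows), and CACGTG was in 4 (8.7%, beside 7.26%), those of ATG14, ATG3, BNIP3 and NRBF2. Of these genes NRBF2 and BNIP3 were higher, ATG14 was lower and ATG3 was not called. The stretch of the NRBF2 promoter that holds the word is shown because it belongs to the gene with the largest rise, with the word in capitals (plus strand, chr10:63133078-63133114, GRCh38.p14, the word starting at position -247 from the start site).
NRBF2 promoter: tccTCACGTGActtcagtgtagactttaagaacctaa

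A microRNA pairs with messages through its seed, and matches to the seed in a 3′ UTR often go with lower RNA. The mature strand miR-194-5p (RefSeq, GRCh38.p14) has 22 bases, shown with its seed, bases 2 to 8, in capitals.
miR-194-5p: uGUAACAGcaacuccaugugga

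For each gene the longest 3′ UTR annotated in GENCODE 29 (GRCh38) was searched for the 8mer CTGTTACA, the 7mer-m8 CTGTTAC and the 7mer-A1 TGTTACA. The 7mers lie within the 8mer, and a match was given its longest class. Of the 41 autophagy genes 4 had such a match (9.76%), beside 20.6% of 13438 tested genes with an annotated 3′ UTR. None of the 41 had the 8mer. The matches are shown in capitals with 10 bases before and 9 after, read along the message. They are shown because they are all the 7mer sites of the set in these longest UTRs. They lie at chr18:42082179-42082185 and chr18:42084993-42084999 (plus strand) for PIK3C3, chr17:59840363-59840369 (plus strand) for VMP1, chr3:112534037-112534043 (minus strand) for ATG3 and chr3:11556489-11556495 (plus strand) for ATG7.
PIK3C3 first: caacttaataTGTTACAtagtcatat
PIK3C3 last: atttgaggctCTGTTACgctggtcat
VMP1: atgtttatcaTGTTACAatttaatat
ATG3: agctcaccctTGTTACAgaggtaact
ATG7: ggtggttttcCTGTTACgacgctcag

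None of these 4 genes was called lower. VMP1 rose, with a log2 fold change of 0.27, while PIK3C3, ATG3 and ATG7 lay at -0.02, 0.02 and 0.09 and were not called. Among all tested genes with such a site, 1129 of 2768 were lower (40.8%) and 314 were higher (11.3%), and their median log2 fold change was -0.12 against 0.03 without one. The 4 genes had a median of 0.05 and the other 37 had 0.11. UVRAG, ATG14, PIK3R4 and ATG4C, which fell, carry no 8mer or 7mer in that UTR. ATG4C had the shorter 6mer TGTTAC, as did ATG13, ATG2B, ATG5, ATG12, MAP1LC3B and NBR1, of which ATG12, MAP1LC3B and NBR1 rose. MAP1LC3B also had a 7mer-A1 in another annotated 3′ UTR. In the coding sequence PIK3C3 and TAX1BP1 had a 7mer-m8, and neither was called, though TAX1BP1 was lower with the replicate block (edgeR adjusted p = 0.00766).

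**Figure D4:**
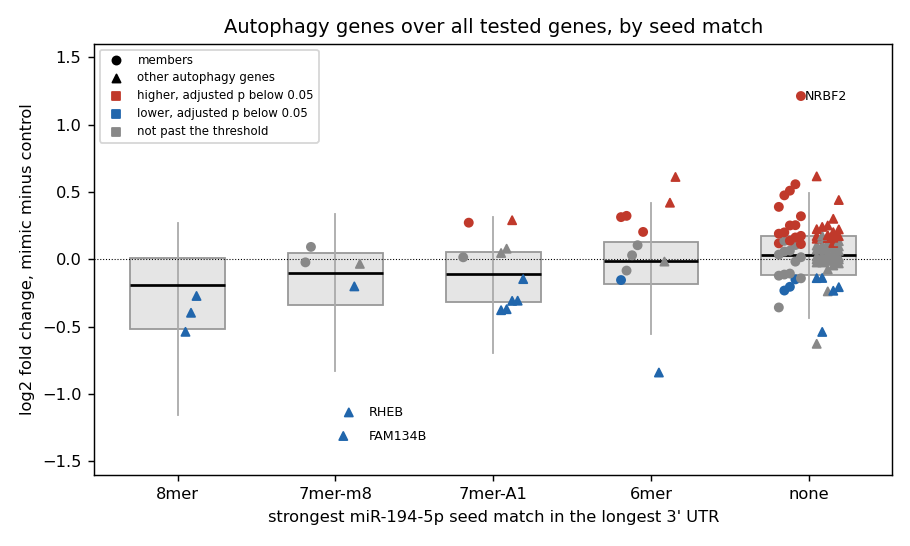
Log2 fold change (mimic over control) by the best miR-194-5p seed match in the longest 3′ UTR, with boxes for the 25th to 75th percentile of all tested genes, a black line for the median, whiskers for the 5th to 95th percentile, circles for the 41 autophagy genes and triangles for the other autophagy genes. The median of all tested genes runs from -0.19 with an 8mer to 0.04 with no match, and the 4 circles with a 7mer lie between -0.02 and 0.27.

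The words GACGTA and GACAGTA were also searched, on the message strand of the same 3′ UTRs. They had been picked from these data before as words common in the 3′ UTRs of genes that rose, so their link to rising genes is not independent evidence. NRBF2 held GACGTA once, at chr10:63154966-63154971 (plus strand, GRCh38), which 4.71% of tested genes with a 3′ UTR hold. ATG4A, SQSTM1, VMP1 and ATG3 held GACAGTA, as did 8.8% of tested genes with a 3′ UTR. Together 5 of the 41 genes (12.2%) held either word, beside 12.7% of tested genes with a 3′ UTR, and 4 of the 5 rose, ATG3 being the one not called. Of 1701 tested genes with either word, 562 were higher (33.0%) and 298 were lower. The NRBF2 and ATG4A stretches are shown because these genes have the largest rises of the 5 (ATG4A plus strand, chrX:108153892-108153898), with the word in capitals.
NRBF2: tgcaagagtgGACGTAatgctagttg
ATG4A: caaaacaaatGACAGTAacccttccc

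Autophagy genes outside the 41 did not lean to 1 direction. Of 74 further genes listed, 73 had a row and 70 were tested, of which 18 were higher (25.7%) and 17 lower (24.3%), near the 18.3% and 19.9% of all tested genes. Their median log2 fold change was 0.03. With the replicate block 24 were higher and 18 lower, and the share of all tested genes called is not given for that fit. Nutrient sensing through mTORC1 and AMPK had 4 higher and 8 lower of 24 genes, and fusion with the lysosome had 6 higher and none lower of 14. Other factors of autophagosome formation had 5 higher and 5 lower of 14, and further cargo receptors and their partners had 3 higher and 4 lower of 18.

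Of the 5 largest called falls, 3 were in genes with an 8mer or 7mer match. Among all tested genes with a 3′ UTR, 1129 of those called lower had such a match and 1620 had none. RHEB, the small GTPase that activates mTORC1, measured 54.2, 53.8, 51.9 and 50.6 CPM with the mimic and 113, 117, 113 and 120 CPM in the control. All mimic libraries were below all control libraries, at 0.455 of the control level, a log2 fold change of -1.14 ± 0.04 (SE; edgeR adjusted p = 3.01e-09). FAM134B, now RETREG1, a receptor for autophagy of the endoplasmic reticulum, measured 3.61, 2.98, 4.12 and 3.62 CPM with the mimic and 8.98, 7.85, 9.93 and 9.03 CPM in the control. The groups did not overlap, and its log2 fold change was -1.31 ± 0.11 (SE; edgeR adjusted p = 2.49e-06). KIAA0226, now RUBCN, encodes Rubicon, which holds back the UVRAG form of the PI3-kinase complex. It measured 28.4, 32.8, 28.6 and 30.9 CPM with the mimic and 45.3, 43.2, 44.1 and 42.3 CPM in the control. Each mimic library was lower, with a log2 fold change of -0.54 ± 0.05 (SE; edgeR adjusted p = 1.24e-05).

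The 3′ UTR of KIAA0226 has an 8mer (minus strand, chr3:197673888-197673895), that of FAM134B a 7mer-m8 (minus strand, chr5:16474324-16474330) and that of RHEB a 7mer-A1 and a 7mer-m8 (minus strand, chr7:151466793-151466799 and chr7:151466152-151466158). In the coding sequence RHEB also has an 8mer, FAM134B a 7mer-m8 and KIAA0226 the 6mer. The UTR sites are shown for comparison with the sites of the 41 genes, with the match in capitals (GRCh38).
RHEB first: tgatgcatatTGTTACActactatta
RHEB last: tgtttggtggCTGTTACcttgtctgt
KIAA0226: ctattagtgCTGTTACAgaacttgac
FAM134B: tgaatacatgCTGTTACcagcttcct

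Of the 70 further genes 15 had an 8mer or 7mer site (21.4%), of which 11 were lower (73.3%) and 1 was higher (6.67%), beside 40.8% and 11.3% of all tested genes with such a site. They had a median log2 fold change of -0.31 against 0.07 for the 55 without. RRAGD, a Rag GTPase that recruits mTORC1 to the lysosome, has 3 such sites, 1 of them an 8mer, and fell by 0.40 on the log2 scale. The AMPK subunit genes PRKAA1 and PRKAB2 also fell, by 0.38 and 0.31. PRKAA2, the other catalytic AMPK subunit, has a 7mer-A1 and was the one that was higher, at 0.29.

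The remaining falls among those 5 were in TP53INP1, which binds ATG8 proteins, and ATG16L2, a relative of ATG16L1. TP53INP1 measured 32.3, 32.1, 50.1 and 48.7 CPM with the mimic and 57.5, 54.7, 89.7 and 91.2 CPM in the control, so that replicates 3 and 4 were higher than 1 and 2 in both groups. The groups did not overlap, and the log2 fold change was -0.84 ± 0.23 (SE; edgeR adjusted p = 0.0175). The call was lost without mimic replicate 2 or control replicate 4 (edgeR adjusted p 0.054 and 0.058) and with no filter on low counts (0.0583). With the replicate block, which takes up the difference between replicates, the edgeR adjusted p was 4.18e-10. The log2 fold change was -0.80 in replicates 1 and 2 alone and -0.87 in replicates 3 and 4 alone. ATG16L2 fell from 7.76 ± 0.363 to 5.36 ± 0.425 CPM, a log2 fold change of -0.54 (edgeR adjusted p = 0.000251), and its 3′ UTR holds no match.

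Of the genes that rose, RPTOR, the subunit of mTORC1 that binds its substrates, measured 59.7, 61.8, 58 and 58.8 CPM with the mimic and 42.3, 39.4, 37.6 and 36.1 CPM in the control. RAB7A, the GTPase of late endosomes and lysosomes, measured 232, 219, 229 and 207 CPM with the mimic and 148, 157, 136 and 140 CPM in the control. Neither gene overlapped between groups, and both rose 1.53-fold, with log2 fold changes of 0.62 ± 0.05 and 0.61 ± 0.05 (SE; edgeR adjusted p = 3.23e-06 and 3.15e-06). TECPR1, which links autophagosomes to lysosomes, rose from 21.2 ± 1.31 to 28.8 ± 1.29 CPM, a log2 fold change of 0.44 (edgeR adjusted p = 0.000106). SEC62, a receptor for autophagy of the endoplasmic reticulum, rose by 0.42 on the log2 scale and TP53INP2, which binds ATG8 proteins, by 0.30 (edgeR adjusted p = 9.26e-06 and 0.00841).

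**Figure D5:**
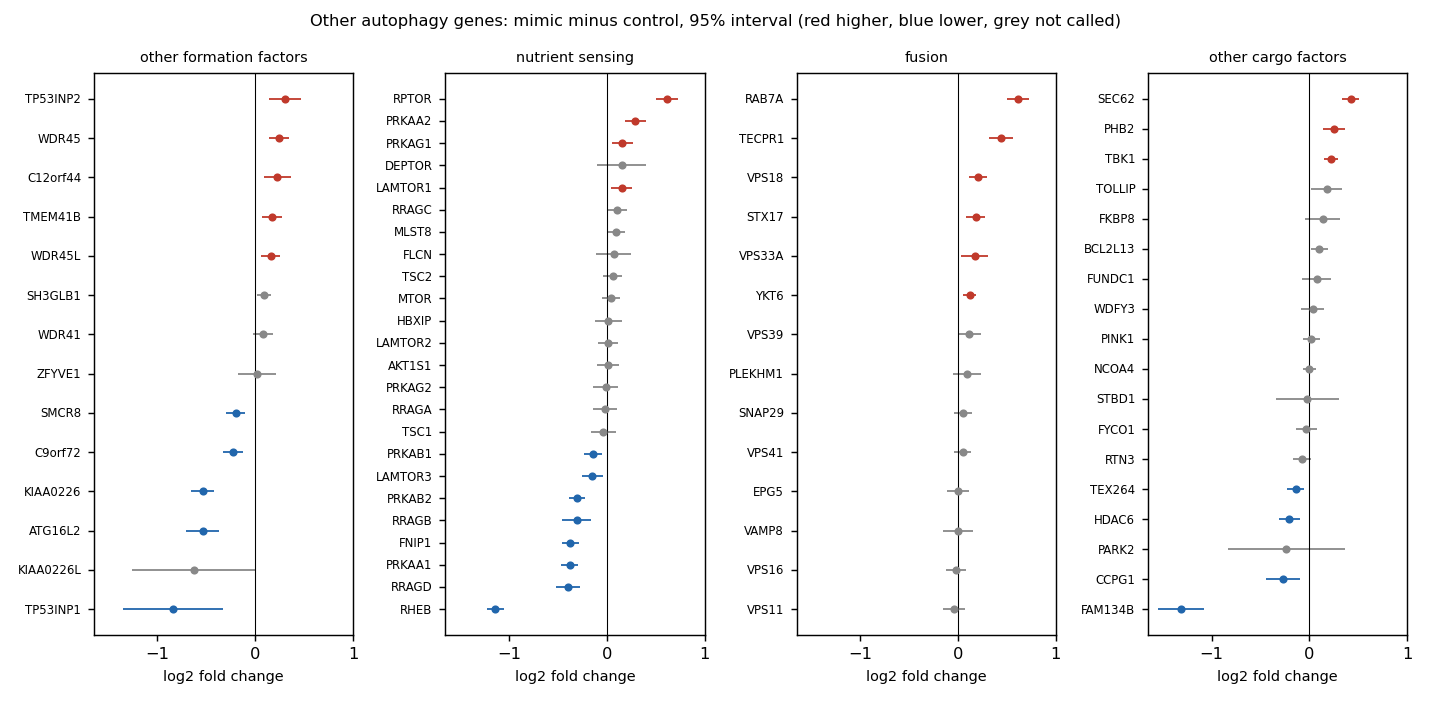
Log2 fold change (mimic over control, horizontal axis) of each of the 70 tested further autophagy genes, in panels by role. Bars give the 95% confidence interval of the edgeR fit. Values run from -1.31 for FAM134B to 0.62 for RPTOR, and RHEB stands at -1.14.

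Some autophagy genes share exonic bases with a neighbouring gene, and whether counting used strand is unstated. In GENCODE 29 this held for at least 10% of the exonic length of 7 of the 41 genes, and 20 shared none. The called ones among the 7 were WIPI1, ATG9A, SQSTM1 and BECN1. WIPI1 shares 28.1% with ARSG and AC007780.1 together, both on the opposite strand, and ARSG fell by 0.26 on the log2 scale while WIPI1 rose. SQSTM1 shares 22.0% with MGAT4B and MRNIP together, of which MGAT4B lay at -0.02. BECN1, which rose by 0.11, shares 17.1% with PSME3 and CNTD1 together. PSME3 rose from 244 to 261 CPM with the mimic, a log2 fold change of 0.10 (edgeR adjusted p = 0.0263). CNTD1 fell from 3.22 to 2.18 CPM, a log2 fold change of -0.56 (edgeR adjusted p = 0.012). ATG7, which was not called, shares 18.1% with VGLL4, which rose by 0.77. ATG9A shares 38.8% with 1 other annotated gene. Reads of such overlaps can be counted for either gene.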

How the data were processed

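The authors deposited raw read counts per gene symbol, 1 column for each of the 8 libraries. Per the submitters' processing notes, cutadapt 1.8.1, FastQC, STAR, R 3.2.3, edgeR 3.3 and the build hg19 were used, with no role given for each. The counting program, annotation and strand setting were not given in the sources used here, and mature miR-194 was not analysed here. Of the 23346 symbols, 3370 had no count in any library. A floor of 3 counts was 0.0635 to 0.0924 CPM, taken on raw library totals, and covers counting error only.

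Tests on counts used edgeR 4.0.16 under R 4.3.3 (filterByExpr filter, TMM, robust quasi-likelihood fit, Benjamini-Hochberg adjustment over 14977 genes, two-sided, adjusted p below 0.05), with the group as the only term, and the procedure was tested on simulated data. Apart from that floor, CPM uses TMM library sizes. Standard errors are from the F statistic. Same-numbered libraries deviated together (r = 0.269, 0.337, 0.183 and 0.433 for replicates 1 to 4, all over 0.1), so an alternative fit took the replicate number as a block. Unless the block is named, p-values, standard errors and intervals come from a fit that leaves this pairing out. Replicate 1 of a group also correlated with replicate 2 of the other (0.255 and 0.285), and replicate 3 with 4 (0.198 and 0.319), so the data separate replicates 1 and 2 from 3 and 4 rather than each number. For the 41 genes the fit with the replicate block is given where it changes a call, and it is also given for TP53INP1. Alternatives were DESeq2 1.42.0, limma-voom (limma 3.58.1), other scalings and filters, each library left out and each pair of replicates alone.

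The members and lists were chosen with earlier results of these data known. Values in every library are given for NRBF2, for up to 6 called members with the largest changes in each direction (6 higher and 4 lower) and for ATG8 genes. Of the other autophagy genes, the 5 largest called in each direction are named, while genes named for seed matches or overlaps were chosen after their values were seen. The sites were searched with Python 3.11.15 in GENCODE 29 (GRCh38), joined by symbol, with 20194 symbols the same, 1460 matched by synonym and 1692 unmatched. Coordinates come from this match, not from the build of the counts.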

Additional observations from a re-analysis of the deposited data

Results flagged for a closer look

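Of 82 groups of 4 libraries (the 41 genes in each treatment), 3 held a library far from the other 3, where chance gives about 1 in 20. ULK1 was highest in mimic replicate 3, at 101 CPM, with the others between 88.3 and 90.2 CPM. ULK2 was highest in control replicate 1, at 31.4 CPM, with the others between 29 and 29.3 CPM. ATG4B was highest in control replicate 2, at 56.3 CPM, with the others between 51.4 and 51.8 CPM.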

How the results depend on the processing

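Over 17 alternatives 13 of the 23 called members kept their call, 10 lost it in at least 1 and 0 reversed. PIK3R4, WIPI2, MAP1LC3B, SQSTM1 and CALCOCO2 lost it only in replicates 3 and 4 alone (edgeR adjusted p = 0.063, 0.0857, 0.0878, 0.119 and 0.0556). The others were BECN1, ATG9A, UVRAG, ATG14 and ATG4C. UVRAG and ATG14 also lost it in replicates 1 and 2 alone (edgeR adjusted p = 0.11 and 0.164), and ATG4C in replicates 3 and 4 alone (0.156). The number higher, 19, was 18 to 19 with 1 library left out, 21 with the replicate block and 13 in replicates 3 and 4 alone. The number lower, 4, was 1 to 5 with 1 library left out and 7 with the replicate block, which added ATG4D, ATG10 and TAX1BP1. For these alternatives the share of all tested genes called is not given. The block called 5 of the 18 members without a call and ended no call of the 23. The difference in median between members with and without a seed match, -0.06, was -0.0238 with 6mers counted and -0.0175 with any annotated 3′ UTR, and -0.09 to -0.04 with 1 library left out. It rests on 4 genes. Signs turned only in members not called. With 1 library left out the log2 fold change was -0.0188 to 0.0792 for ATG2B, -0.0050 to 0.0345 for ATG3, -0.0350 to 0.0102 for BNIP3L, -0.0144 to 0.0531 for GABARAPL2 and -0.0039 to 0.0854 for TFE3. Replicates 3 and 4 alone gave -0.0101 for ATG2B, 0.0293 for PIK3C3 and -0.0459 for TFE3, replicates 1 and 2 alone gave 0.0060 for BNIP3L, and library totals alone gave -0.0002 for ATG3. The cause was not tested. Depth limits OPTN most, the lowest of the 41.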
